A study of Mus musculus with 6 samples.

Results

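The 62 genes described here encode proteins of the spliceosome, its regulators and the exon junction complex in mouse osteosarcoma cells. They are the genes whose symbol in the deposited table names a single gene and starts with Srsf, Sfrs, Hnrn, Sf3a, Sf3b, Snrp, Prpf or Magoh, out of 13213 genes tested. They were measured by 147 of the 21556 probe sets used, 22 of them by 1 probe set and 40 by 2 or more, with at most 7. A further 9 probe sets matched these prefixes but named several genes, and they were not counted among the members. The file writes 3 members as Srsf12, Srsf15 and Srsf2ip, which RefSeq lists as Srek1, Scaf4 and Scaf11, and all 147 probe sets were matched to RefSeq by Entrez number.

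RNA came from mOS482, a line from a spontaneous mouse osteosarcoma that arose without Rb and p53, so that both groups lack these tumour suppressors. In both groups the cells were stably infected with an shRNA vector, selected in hygromycin at 200 µg/ml and grown as 3 plates to 80% confluence. The control cells expressed a scrambled hairpin (3 arrays) and the other cells a hairpin against Sox2 (3 arrays), a transcription factor of stem and progenitor cells. Each group was 1 infected line with plates as replicates, so that p-values measure only the spread between plates and arrays.

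Splicing removes introns from pre-mRNA. The U1 and U2 particles recognise the splice sites and the branch point, and the U4/U6.U5 tri-particle then joins to form the catalytic spliceosome. SR proteins bind exons and mostly promote their use, hnRNPs bind nascent RNA and often block splice sites, and the exon junction complex is left on the mRNA upstream of each new exon border. Magoh and Magohb are a pair of paralogues that encode nearly identical proteins, each of which binds Rbm8a (Y14) to form the dimer that locks this complex onto RNA. Cells can use either paralogue in the complex.

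The arrays were Affymetrix 430A 2.0, and 100 ng of RNA was labelled for each. The deposited values are log2 values from which each probe set's level near the scrambled arrays has been subtracted, so that the level of a gene, and whether it lies above background, is unknown and only differences between arrays can be read. Differences below are log2 values of the Sox2 shRNA arrays minus those of the scrambled arrays, given ± limma's SE (n = 3 per group), and a gene was called where its limma adjusted p, over all genes tested, was under 0.05. For the targeted gene, the Sox2 values were 0.069, -0.039 and -0.033 on the scrambled arrays and 0.17, 0.055 and 0.58 on the Sox2 shRNA arrays. The Sox2 difference of 0.27 ± 0.14 was not called (limma adjusted p = 0.154), so that a lower Sox2 transcript was not seen on the arrays labelled Sox2 shRNA, and every direction below rests on the labels. In bulk RNA, fewer cells of a type and less RNA per cell cannot be told apart.

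Of the array controls, 2 of 3 measures did not overlap between the groups, and they stand here because they touch all counts below. The mean of 45 bacterial spike-in probe sets was 0.11, -0.060 and -0.10 on the scrambled arrays and 0.67, 0.32 and 0.27 on the Sox2 shRNA arrays. The log2 difference between the 3′ and 5′ control probe sets of Actb, which grows when labelled RNA is shorter, was 0.32, -0.027 and -0.32 on the scrambled arrays and 1.55, 0.65 and 0.58 on the Sox2 shRNA arrays. Neither measure overlapped between the groups (two-sided exact permutation p = 0.1 each, the smallest that 3 against 3 allows), and Sox2 shRNA array 1 was highest in both. The same difference for Gapdh was 0.25, -0.032 and -0.18 on the scrambled arrays and 0.48, 0.24 and 0.18 on the Sox2 shRNA arrays, with overlapping groups (two-sided exact permutation p = 0.3). Of the markers listed for the line, 2 of 8 osteoblast genes were called higher (Col1a1 3.52, Alpl 0.99) and 2 lower (Dlx5 -2.69, Col1a2 -0.42). These shares of 25% stand beside 16.8% of all genes called higher and 21.8% called lower. Of 7 macrophage markers 2 (28.6%) were called higher (Csf1r 0.76, Adgre1 0.36), with a list median of 0.26. Of 6 endothelial markers none was called by limma, with a median of 0.18. Without any 1 scrambled array, 1 osteoblast marker was called lower and 1 macrophage marker higher. With unknown levels, whether these markers are present in the cells cannot be read. The parts of these measures in the results below were not tested, except where a value with a control measure as covariate is given.

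The paralogous pair of the exon junction complex gave the widest contrast among the members. Magohb (probe set 1450943_at, minus strand of chr6:131234406-131243262 in the deposited table, whose build is not stated) read 0.083, -0.049 and 0.020 on the scrambled arrays and -4.91, -4.96 and -5.22 on the Sox2 shRNA arrays. The 3 Sox2 shRNA arrays lay close together and far below all 3 scrambled arrays. Magohb fell by 5.05 ± 0.11, which is 33.1-fold lower (limma adjusted p = 2.5e-07), the largest difference of the 62 members.

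Magoh (probe set 1416212_at, plus strand of chr4:107552381-107560005 in the same table) read -0.055, 0 and 0.048 on the scrambled arrays and -0.90, -0.47 and -0.50 on the Sox2 shRNA arrays. The groups did not overlap here either, and Sox2 shRNA array 1 was the lowest. Magoh fell by 0.62 ± 0.13, a 1.54-fold lower value (limma adjusted p = 0.0065). Taken within each array, Magohb minus Magoh was 0.020 ± 0.10 (SD, n = 3) on the scrambled arrays and -4.41 ± 0.36 (SD, n = 3) on the Sox2 shRNA arrays. The difference of -4.43 between the groups, 21.5-fold, did not overlap between arrays and reached the smallest p possible (two-sided exact permutation p = 0.1). Each gene has 1 probe set, each aligned to 1 place, and whether either probe set also binds RNA of the other paralogue was not tested. With the spike-in mean as covariate the Magohb difference was -5.28, while Magoh moved to -0.21 and was not called (limma adjusted p = 0.347). With the Actb control ratio as covariate the values were -5.22 for Magohb and -0.28 for Magoh, the latter again not called (limma adjusted p = 0.163).

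**Figure D1:**
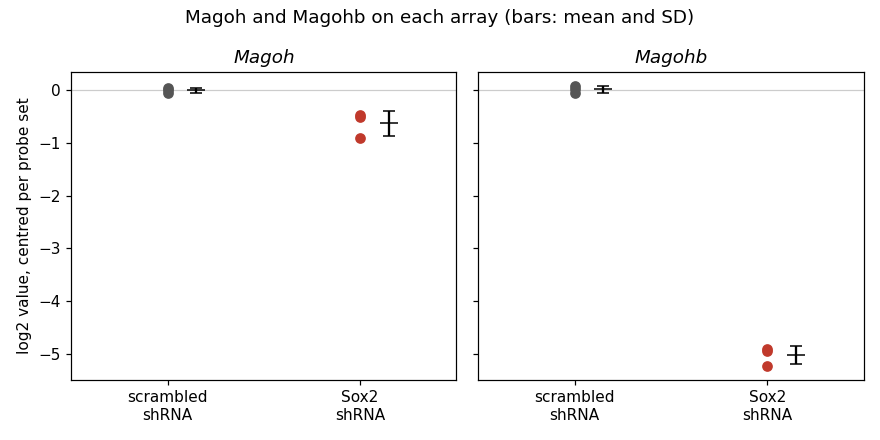
Log2 value, centred per probe set, of Magoh (left) and Magohb (right) on each of the 3 scrambled shRNA arrays (grey points) and the 3 Sox2 shRNA arrays (red points), with the mean and SD of each group beside the points. Magohb lies between -4.91 and -5.22 on the Sox2 shRNA arrays and Magoh between -0.47 and -0.90.

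The promoters of the pair are shown because the transcripts of these near-identical proteins differed so widely in their response, and each is the window of 250 bases before to 50 bases after the gene start from RefSeq (GRCm38.p6, 5′ to 3′ along the gene). The Magoh window is chr4:107879505-107879804 on the plus strand, and the Magohb window is chr6:131293195-131293494 on the minus strand. Capitals mark TGACGTCA, the palindromic cyclic AMP response element that is read the same on both strands.
Magoh: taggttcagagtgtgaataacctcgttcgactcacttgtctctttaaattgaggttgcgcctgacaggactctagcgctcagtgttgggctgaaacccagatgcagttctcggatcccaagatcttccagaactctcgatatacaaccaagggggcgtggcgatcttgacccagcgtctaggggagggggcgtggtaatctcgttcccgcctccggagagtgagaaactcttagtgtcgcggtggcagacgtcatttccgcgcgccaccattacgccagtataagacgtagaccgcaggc
Magohb: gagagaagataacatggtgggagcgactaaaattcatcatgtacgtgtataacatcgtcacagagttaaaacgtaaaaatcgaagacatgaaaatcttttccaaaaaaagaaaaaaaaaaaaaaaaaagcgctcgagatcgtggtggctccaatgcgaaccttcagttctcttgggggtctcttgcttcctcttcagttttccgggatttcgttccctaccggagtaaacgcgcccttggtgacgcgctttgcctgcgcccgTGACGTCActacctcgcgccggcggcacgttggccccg
The Magohb window held TGACGTCA, beginning 12 bases past the gene start, and the Magoh window did not. The 8 letters occurred in 1.79% of the 32851 RefSeq promoter windows of the same length, and in 3 of the 77 windows of the members. The shorter TGACG or its complement CGTCA, both of which lie inside the longer motif, occurred 4 times in the Magohb window with overlapping matches counted and once in the Magoh window, in 48.1% of the members' windows and in 20.8% of all windows. ACAATG or its complement CATTGT, a core bound by Sox proteins, was in neither window of the pair, in 7.79% of the members' windows and in 12.6% of all windows. The motifs were chosen after the sequences had been seen, and a match is only a match of letters.

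The falls of the pair were set beside those of the genes next to them. Of the 10 tested genes nearest to Magohb on its chromosome, 5 on either side, none was called lower by limma. The share called lower was 9.83% of chromosome 6 genes and 21.8% of all genes. Klra2 (0.87) and Smim10l1 (0.42) were called higher, as were 16.8% of all genes. The neighbour on one side, Ybx3, which encodes a cold-shock-domain RNA-binding protein, differed by 0.12 and was not called (limma adjusted p = 0.269). Of the 10 nearest to Magoh, Cpt2, a mitochondrial acyltransferase, was called lower (-0.31), as were 31.1% of chromosome 4 genes. None of the 10 was called higher, and the range was -0.55 to 0.25.

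Across all 62 members, most transcripts were lower on the Sox2 shRNA arrays. By limma 40 members (64.5%) were called lower, where 21.8% of all genes tested were, and 3 were called higher, where 16.8% of all genes were. The remaining 19 were not called. The median difference of the members was -0.43, beside 0.078 over all genes tested, and 54 of the 62 lay below 0. The arrays of the groups did not overlap, with Sox2 shRNA lower, for 46 members (74.2%, beside 27.6% of all genes), and with Sox2 shRNA higher for 5 (29.3% of all genes). The differences were mostly small: 4 members were called at least 2-fold lower (3.62% of all genes), namely Magohb, Hnrnph2, Prpf8 and Srsf10.

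These counts moved with the array controls. With the spike-in mean as covariate 8 members were called lower (8.82% of all genes) and 1 higher (7.27%), and the members' median was -0.19. The 8 were Magohb, Srsf10, Srsf11, Srsf9, Hnrnph2, Hnrnpa3, Sf3b5 and Snrpc, and the 1 was Prpf40b. With the Actb control ratio as covariate 11 were called lower (10.8% of all genes), the same 8 with Prpf8, Sf3a1 and Srsf3, 1 was called higher (8.01%), and the median was -0.25. Where each gene was represented by its probe set of highest mean, which on centred values favours probe sets that read high on the Sox2 shRNA arrays, 20 were called lower (14.4% of all genes) and 7 higher (19.0%). Per array, the members' median was -0.011, 0 and 0.025 on the scrambled arrays and -0.58, -0.32 and -0.34 on the Sox2 shRNA arrays. Of the 40 called lower, 33 (82.5%) were lowest on Sox2 shRNA array 1, as were 66.6% of all genes called lower. Without that array 40 members were called lower (23.7% of all genes) and 4 higher (20.4%).

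**Figure D2:**
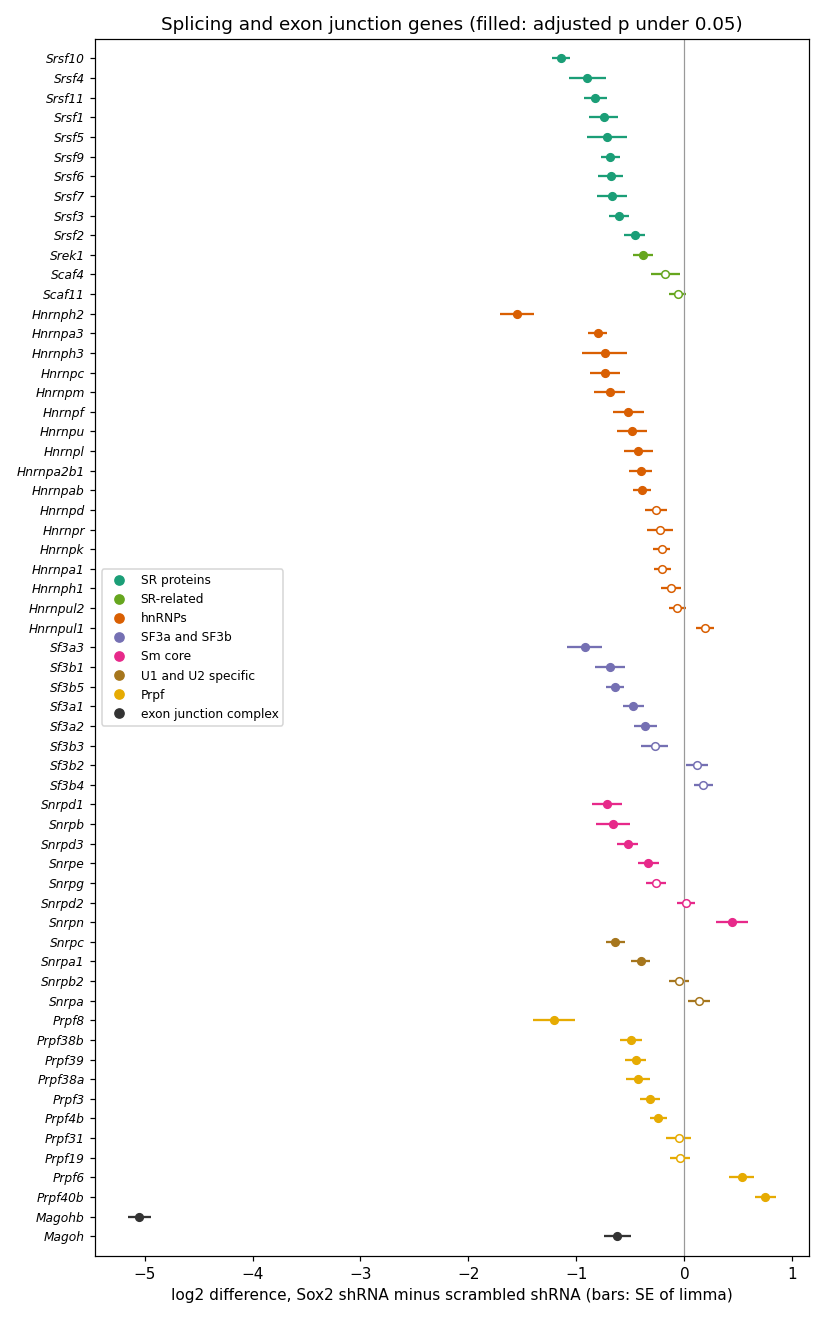
Log2 difference, Sox2 shRNA minus scrambled shRNA, for the members reported by name, with bars for the SE of limma, grouped and coloured by complex, and filled where the limma adjusted p was under 0.05. Most points lie left of 0, Magohb lies alone at -5.05, and Prpf40b at 0.75 is the highest.

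All 10 SR proteins were called lower, beside 21.8% of all genes, with differences of -1.14 to -0.46 and a median of -0.70. Their arrays did not overlap between the groups for any of the 10. Srsf10, which represses splicing when dephosphorylated in mitosis and after heat shock, read 0.061, -0.0092 and 0.086 on the scrambled arrays and -1.05, -1.18 and -1.05 on the Sox2 shRNA arrays. It fell by 1.14 ± 0.083, or 2.20-fold (limma adjusted p = 6.2e-05), the most of the SR proteins. As averaged, it was not lowest on Sox2 shRNA array 1. Its 4 probe sets, each aligned to 2 places, gave -1.92, -1.20, -0.95 and -0.49, the last not called. Those at -1.92 and -0.95 were lowest on Sox2 shRNA array 1, and those at -1.20 and -0.49 were not.

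Srsf9 (SRp30c), a regulator of alternative splice site choice, read -0.042, 0 and 0.025 on the scrambled arrays and -0.81, -0.62 and -0.64 on the Sox2 shRNA arrays (-0.69 ± 0.088, limma adjusted p = 0.00079). Srsf11, a protein first found with the U1 and U2AF factors, read -0.082, 0.020 and 0.042 on the scrambled arrays and -1.03, -0.70 and -0.76 on the Sox2 shRNA arrays (-0.83 ± 0.11, limma adjusted p = 0.00087). Both genes were lower on every Sox2 shRNA array than on any scrambled array. Srsf3, the smallest of the classical SR proteins and a regulator of mRNA export and 3′ end choice, differed by -0.61 ± 0.094 (limma adjusted p = 0.0019), from 6 probe sets. Of these, the 3 probe sets aligned to 3 places each gave -1.59, -1.14 and -0.78, all called, and the 3 aligned to 1 place gave -0.17, -0.033 and 0.082, none called. No Srsf3 probe set that aligns to 1 place was called.

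The other SR proteins differed by -0.90 to -0.46, as averaged. Srsf4 differed by -0.90, Srsf1, the founding SR protein (SF2/ASF), by -0.75, Srsf5 by -0.72, Srsf6 by -0.68, Srsf7 by -0.67 and Srsf2 (SC35) by -0.46. All 6 were called, with limma adjusted p from 0.0031 to 0.0182, and 9 of the 10 SR proteins were lowest on Sox2 shRNA array 1. Single probe sets ran from -1.35 to 0.038 for Srsf1, -1.25 to -0.26 for Srsf7, -0.95 to -0.0039 for Srsf2 and -0.83 to -0.46 for Srsf6. Srsf4 and Srsf5 had 1 probe set each. With the spike-in mean as covariate 3 of the 10 were called lower (8.82% of all genes) and with the Actb control ratio 4 (10.8%). The probe set of highest mean gave 3 (14.4%). Of the 3 SR-related genes, Srek1, a regulatory protein with SR-like repeats, fell by 0.38 ± 0.090 (limma adjusted p = 0.0127), a call that was lost without scrambled array 1 or 3. Scaf4 and Scaf11, which have domains that bind RNA polymerase II or SR proteins, differed by -0.18 and -0.06 and were not called.

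Of the 17 hnRNP genes 10 were called lower (58.8%, beside 21.8% of all genes), none higher, and the median was -0.40. The largest fall was that of Hnrnph2, an X-linked gene for an hnRNP that binds runs of G. It read -0.037, -0.081 and 0.12 on the scrambled arrays and -1.91, -1.38 and -1.36 on the Sox2 shRNA arrays, with no overlap. The difference was -1.55 ± 0.16, or 2.93-fold lower (limma adjusted p = 0.00027), and it stayed called with the spike-in covariate at -1.01. The only Hnrnph2 probe set aligned to 2 places. As averaged, the paralogues of Hnrnph2 were lower by less or not called. Hnrnph3 fell by 0.74 ± 0.21 (limma adjusted p = 0.0246). Hnrnpf fell by 0.52 ± 0.14 (limma adjusted p = 0.0228), from 2 probe sets aligned to 4 places each. Hnrnph1 at -0.12 was not called (limma adjusted p = 0.283). Its average joined a probe set at -0.47, called lower, with another at 0.22, not called. Another 2 probe sets, which name Hnrnpf together with a second locus and are not members, differed by 0.69 and 0.51, opposite to the Hnrnpf value. These sets and the Hnrnph1 set at 0.22 carry the suffix _x_at, which marks sets whose probes may match unrelated transcripts. The differences between paralogues were not themselves tested.

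Hnrnpa3, an A/B-type hnRNP, read -0.055, -0.10 and 0.064 on the scrambled arrays and -0.90, -0.78 and -0.83 on the Sox2 shRNA arrays. It fell by 0.80 ± 0.086 (limma adjusted p = 0.00036), with the averaged Sox2 shRNA arrays within a narrow band. Its 2 probe sets, each aligned to 2 places, ordered these arrays differently, at -0.45, -0.58 and -0.64 and at -1.34, -0.97 and -1.02. Not counted as members, 2 probe sets that name Hnrnpa3 together with other loci differed by 0.0027 and -0.32. Hnrnpc, which binds runs of U and forms the core of hnRNP particles, fell by 0.74 ± 0.14 (limma adjusted p = 0.0048). Hnrnpm (-0.69), Hnrnpu (-0.48), a nuclear matrix protein, Hnrnpl (-0.43), which binds CA repeats, Hnrnpa2b1 (-0.40) and Hnrnpab (-0.39) were also called lower. Hnrnpd (AUF1, -0.26), Hnrnpr (-0.23), Hnrnpk (-0.21), Hnrnpa1 (-0.21), Hnrnpul2 (-0.06) and Hnrnpul1 (0.19) were not called. Hnrnpk had probe sets called lower at -0.81 and -0.50, and others at 0.20 and 0.27, not called. Hnrnpa1 had sets called lower at -0.73 and -0.32, and others from -0.27 to 0.25, not called. Hnrnpr had a set called lower at -0.91, and others at -0.017 and 0.25, not called. In these genes the sets called lower aligned to more than 1 place, and the others to 1. Of the 10 falls, 6 were called without scrambled array 1, 6 without scrambled array 2 and 5 without scrambled array 3. With the spike-in covariate 2 of the 17 genes were called lower (8.82% of all genes), and with the Actb covariate 2 (10.8%).

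The SF3a and SF3b subunits of the U2 particle, which hold it on the branch point, were called lower in 5 of 8 cases. This is 62.5%, beside 21.8% of all genes, with none called higher and a median of -0.42. All 3 SF3a genes fell. Sf3a3 read 0.040, -0.097 and 0.086 on the scrambled arrays and -1.28, -0.65 and -0.81 on the Sox2 shRNA arrays (-0.92 ± 0.16, limma adjusted p = 0.0034), with both of its probe sets near that value (-0.97 and -0.87). Sf3a1 fell by 0.47 ± 0.096 and Sf3a2 by 0.36 ± 0.11. The groups did not overlap for any SF3a gene.

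In SF3b, Sf3b1, the scaffold around the branch point, fell by 0.69 ± 0.14 (limma adjusted p = 0.0066), and the small subunit Sf3b5 fell by 0.64 ± 0.085 (limma adjusted p = 0.00088). Sf3b3 (-0.27), Sf3b2 (0.12) and Sf3b4 (0.17) were not called, so that, as averaged, subunits of this stable complex did not share a call. Sf3b2 had a probe set called lower (-0.38) and an _x_at set called higher (0.69). Sf3b4 had a set at -0.35, not called, and an _x_at set called higher (0.70). The suffix _x_at marks sets whose probes may match unrelated transcripts. Without _x_at and _s_at sets 6 of the 8 genes were called lower (21.5% of all genes). With the spike-in covariate 1 of the 8 genes was called lower (8.82% of all genes) and with the Actb covariate 2 (10.8%). The probe set of highest mean gave 2 called lower (14.4%) and 2 higher (19.0%).

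The Sm proteins form the ring common to the U1, U2, U4 and U5 particles. Of 7 Sm genes 4 were called lower (57.1%, beside 21.8% of all genes) and 1 higher (14.3%, beside 16.8%), with a median of -0.33. Snrpd1 read -0.019, -0.045 and 0.062 on the scrambled arrays and -1.05, -0.56 and -0.54 on the Sox2 shRNA arrays (-0.72 ± 0.14, limma adjusted p = 0.0061). Snrpb fell by 0.66 ± 0.15, Snrpd3 by 0.52 ± 0.098 and Snrpe by 0.33 ± 0.10, whereas Snrpg (-0.26) and Snrpd2 (0.01) were not called. Without scrambled array 2 or 3 the count called lower was 2, and with either control covariate it was 0 by limma.

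Snrpn, an imprinted gene that encodes a neuronal Sm protein closely related to Snrpb, went the other way. It read -0.13, 0.12 and -0.064 on the scrambled arrays and 0.74, 0.27 and 0.23 on the Sox2 shRNA arrays. The groups did not overlap, and the rise of 0.44 ± 0.15 was at the edge of the threshold (limma adjusted p = 0.0489). The call was lost without scrambled array 1, 2 or 3 or Sox2 shRNA array 2 (limma adjusted p from 0.0537 to 0.15). With the spike-in mean as covariate Snrpn was at 0.044 and not called (limma adjusted p = 0.917). With the Actb ratio it was at 0.11 and not called (limma adjusted p = 0.738). Its 2 probe sets gave 0.26 and, with the suffix _x_at, 0.62, and neither was called alone. The 4 probe sets that name Snrpn together with Snurf, with which it shares a transcript, are not members. They differed by 0.90, 0.89, 0.23 and 1.74, and those at 0.89 and 1.74 are _x_at sets. Among the proteins of single particles, Snrpc of U1 read -0.11, 0 and 0.033 on the scrambled arrays and -0.73, -0.61 and -0.64 on the Sox2 shRNA arrays. It fell by 0.64 ± 0.085 (limma adjusted p = 0.00092), and its only probe set aligned to 5 places. Snrpa1 of U2 fell by 0.41 ± 0.088 (limma adjusted p = 0.0086), while Snrpa of U1 (0.14) and Snrpb2 of U2 (-0.05) were not called.

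**Figure D3:**
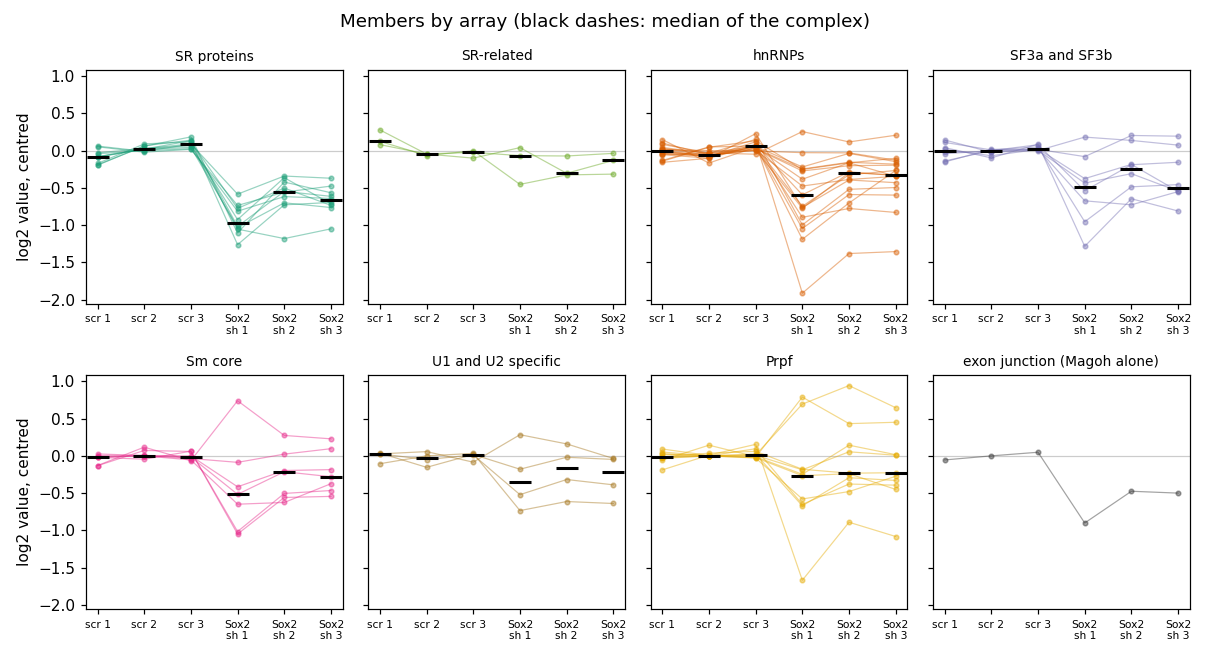
Log2 value, centred per probe set, on each of the 6 arrays for the members of each complex that are reported by name (thin lines, 1 per gene) with the median of the complex over all its members (black dashes); Magohb is left out so that the others can be seen. The medians of the SR proteins were -0.97, -0.55 and -0.67 on the Sox2 shRNA arrays, and those of the Prpf genes -0.27, -0.23 and -0.23.

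The 11 Prpf genes, named after yeast precursor RNA processing mutants, were the most mixed group, with a median of -0.24. Of them 6 were called lower (54.5%, beside 21.8% of all genes) and 2 higher (18.2%, beside 16.8%). Prpf8, the U5 protein at the catalytic centre, read -0.19, 0.010 and 0.15 on the scrambled arrays and -1.67, -0.89 and -1.08 on the Sox2 shRNA arrays. It fell by 1.21 ± 0.20, or 2.31-fold (limma adjusted p = 0.0025), with no overlap. With the spike-in covariate Prpf8 was at -0.46 and was not called (limma adjusted p = 0.107).

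Other tri-particle members had other calls. Prpf6, which bridges U5 and U4/U6, read 0.092, 0.0048 and -0.018 on the scrambled arrays and 0.79, 0.43 and 0.45 on the Sox2 shRNA arrays, and rose by 0.53 ± 0.11 (limma adjusted p = 0.0085). Its 3 probe sets gave 1.24, 0.33 and 0.022, and only the first was called. That probe set carries the suffix _x_at, which Affymetrix gives to sets whose probes may match unrelated transcripts, and without such sets Prpf6 was at 0.18 and not called (limma adjusted p = 0.187). Prpf3 of the U4/U6 particle fell by 0.32 ± 0.089 (limma adjusted p = 0.0246), and Prpf31 (-0.05) was not called.

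Prpf40b, which resembles a U1-associated yeast protein, had the highest difference of the 62 members. It read 0.024, 0 and 0.012 on the scrambled arrays and 0.69, 0.94 and 0.65 on the Sox2 shRNA arrays, without overlap. It rose by 0.75 ± 0.10 (limma adjusted p = 0.00094), and the call was kept with the spike-in covariate at 0.81 (limma adjusted p = 0.0202) and with the Actb covariate at 0.81 (limma adjusted p = 0.0118). Prpf38b (-0.50), Prpf39 (-0.45), Prpf38a (-0.43) and the kinase Prpf4b (-0.24) were called lower, and the ubiquitin ligase Prpf19 (-0.04) was not. The 6 falls of the Prpf genes came down to 3 without any 1 of the scrambled arrays, to 1 with the Actb covariate and to 0 by limma with the spike-in covariate.

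Probe sets of the same member often disagreed in size. Of the 147 probe sets 72 were called lower (20.5% of all probe sets were) and 7 higher (14.6%). The 25 that align to more than 1 place had a median of -0.63, with 18 called lower and 1 higher, and the 122 that align once had a median of -0.33, with 54 lower and 6 higher. The 16 _x_at sets had a median of 0.048, with 2 called lower and 3 higher.

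In 4 members the probe sets were called in opposite directions. Hnrnpab had 5 of 7 called lower and 1 higher, over a range of -1.03 to 0.73. Scaf11 had 2 of 4 lower and 1 higher, from -0.39 to 0.43. Sf3b2 had 1 of 4 in each direction (-0.38 and 0.69), and Snrpb2 had 1 of 3 in each (-0.52 and 0.49). For these 4 genes the averaged value does not describe the single probe sets, and which transcripts they detect was not tested. Averages of other members also joined unlike probe sets. Snrpd3 had -1.27 and 0.22, Hnrnpc -1.30 and -0.17, Sf3b5 -1.16 and -0.13, and Srsf11 -1.34 and -0.31. Hnrnpu had -1.37, -0.11 and 0.029, and Prpf39 -1.03, -0.34 and 0.010. In each of these genes only the lowest probe set was called. Those of Sf3a3 lay close together (-0.97 and -0.87).

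**Figure D4:**
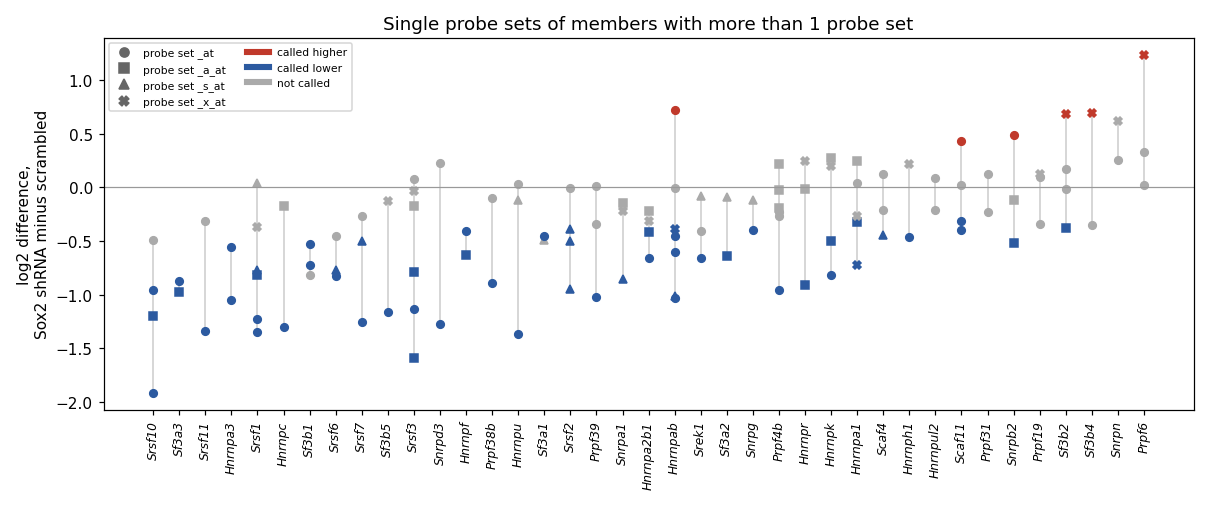
Log2 difference, Sox2 shRNA minus scrambled shRNA, of each probe set (1 symbol each, shaped by the probe set suffix) of the members reported by name that have more than 1 probe set, ordered by the gene average; blue is called lower, red called higher and grey not called. Hnrnpab spans -1.03 to 0.73, and the 3 uppermost probe sets of Srsf3 lie between -0.17 and 0.082.

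The share of genes called lower was not the same on every chromosome, and the members' calls are set beside it here. On chromosome 10 all 4 members (Hnrnph3, Sf3a2, Sf3b5 and Snrpd3) were called lower, where 40.8% of its genes were, and on the X chromosome Hnrnph2 was, beside 41.7% of X-linked genes. On chromosome 6, 3 of 4 members (Magohb, Hnrnpf and Hnrnpa2b1) were called lower where 9.83% of genes were. On chromosome 7, where 8.64% of genes were called lower, 2 of 7 members were.

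Partners outside the 62 genes were read from 8 lists of splicing and exon junction genes, which were also drawn up with earlier results of these arrays known. Of 91 genes measured from these lists 36 were called lower by limma (39.6%, beside 21.8% of all genes) and 7 higher, with a median of -0.21. With the spike-in mean as covariate, the counts called lower were 1 of 16 exon junction and decay partners, 2 of 14 tri-particle and U6 genes, 1 of 12 Prp19 and second step genes, 2 of 18 other regulators, 2 of 8 hnRNP genes under other symbols and 0 by limma in the U2AF, SR kinase and Sm assembly lists. With the Actb ratio as covariate those counts were 2, 2, 2, 2 and 3, with 1 SR kinase and 0 by limma in the U2AF and Sm assembly lists. Of all genes, 8.82% were called lower with the spike-in covariate and 10.8% with the Actb covariate. Among 16 partners of the exon junction complex and of nonsense-mediated decay 7 were called lower and 1 higher. Rbm8a, the partner of both Magoh proteins, fell by 0.31 (limma adjusted p = 0.0226), whereas the helicase Eif4a3 (-0.12) and Casc3 (0.13), the other core proteins, were not called. The peripheral proteins Sap18 (-0.99), Pnn (-0.86), Alyref (-0.54), an mRNA export adaptor, and Rnps1 (-0.34) fell, and Smg6, the endonuclease of decay, rose by 0.68. The Smg6 call was lost without any 1 of the arrays except Sox2 shRNA array 3, and without scrambled array 1, 2 or 3 the count called lower was 4, 4 and 3.

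In the tri-particle and U6 list 6 of 14 were called lower and 1 higher. Lsm2, of the ring that binds the 3′ end of U6, fell by 1.93 (limma adjusted p = 3.5e-05), Lsm8 of the same ring fell by 0.80, Snrnp40 of U5 fell by 0.48, and Sart1 rose by 0.40. Leaving out any 1 scrambled array left 3 called lower, and without scrambled array 1 Sart1 was not called. Of 12 genes of the Prp19 complex and the second step 4 were lower and 1 higher, with the helicase Dhx16 at -1.08, Cwc15 at -0.62, Plrg1 at -0.50 and Xab2 at 0.67. The lower count was 2 without scrambled array 3.

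U2AF and branch point genes were lower in 2 of 7 cases (28.6%, near the 21.8% of all genes; U2af1 -0.47, Puf60 -0.42), with Sf1 (-0.32) and Ddx46 (-0.27) not called, and without scrambled array 2 or 3 the count was 1. Of 7 SR kinases, again 28.6% lower, Clk1 (-0.69) and Clk2 (-0.43), which phosphorylate SR proteins in the nucleus, fell and Srpk2 (0.42) rose, while Clk4 (-0.21) was not called. Of 9 genes for assembly of the Sm ring Prmt5 (-0.91), which methylates Sm proteins, and its partner Wdr77 (-0.41) fell, while Smn1 (-0.80, limma adjusted p = 0.108) and Gemin6 (-0.24) were not called. This share of 22.2% was near the 21.8% of all genes, and without scrambled array 2 or 3 that count was 1. Of 8 hnRNP genes under other symbols 7 fell, among them the poly(C)-binding genes Pcbp2 (-1.04) and Pcbp4 (-0.39), Hnrnpdl (-0.61) and Hnrnpll (-0.58), and Raly rose by 0.28, a call lost without any 1 scrambled array or Sox2 shRNA array 2. Of 18 other regulators 6 fell, with Rbm5 (-0.59), Tra2b (-0.57), Ptbp1 (-0.52) and Rbm39 (-0.42) at the smallest adjusted p, and 2 rose. With the probe set of highest mean 2 of the 18 were called lower (14.4% of all genes) and 7 higher (19.0%). With that of largest variance 10 were called lower (24.8%) and 5 higher (17.3%). Both rules choose probe sets by values that hold the group difference. Without scrambled array 1, 3 fell and without scrambled array 3, 2, and none of the rises was called by limma without any 1 scrambled array or Sox2 shRNA array 3.

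The promoter windows of the members shared sequence features that the selection by name did not use. Of the 62 genes 56 had windows in the RefSeq table, 77 in all. The median window of the members held 25 CpG pairs and was 60.3% G or C, beside 7 and 52.7% over all 32851 windows. CCGGAAG or its complement CTTCCGG, the core bound by ETS factors, was in 32.5% of the members' windows and in 8.86% of all windows, and the 2 sets of windows also differ in the base composition just given. By gene, 20 of the 56 held it, among them 13 of the 37 that were called lower. The match was found in members called in either direction, and the windows of 1 of each are shown for that reason. Sf3a3 (chr4:124714611-124714910, plus strand, -0.92) and Prpf6 (chr2:181601069-181601368, plus strand, 0.53) both held it, in capitals here (RefSeq, GRCm38.p6).
Sf3a3: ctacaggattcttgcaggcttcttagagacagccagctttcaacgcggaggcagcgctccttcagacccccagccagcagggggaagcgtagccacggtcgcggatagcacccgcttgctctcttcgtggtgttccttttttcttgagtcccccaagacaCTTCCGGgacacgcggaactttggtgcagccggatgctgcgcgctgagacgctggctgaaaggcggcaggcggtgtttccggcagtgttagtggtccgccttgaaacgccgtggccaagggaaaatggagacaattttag
Prpf6: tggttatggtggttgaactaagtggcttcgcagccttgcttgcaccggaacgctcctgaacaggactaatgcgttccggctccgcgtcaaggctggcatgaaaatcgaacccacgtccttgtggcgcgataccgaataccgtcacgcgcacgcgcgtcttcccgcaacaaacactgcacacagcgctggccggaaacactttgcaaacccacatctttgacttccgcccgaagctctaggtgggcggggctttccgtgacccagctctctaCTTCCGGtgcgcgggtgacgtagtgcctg

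**Figure D5:**
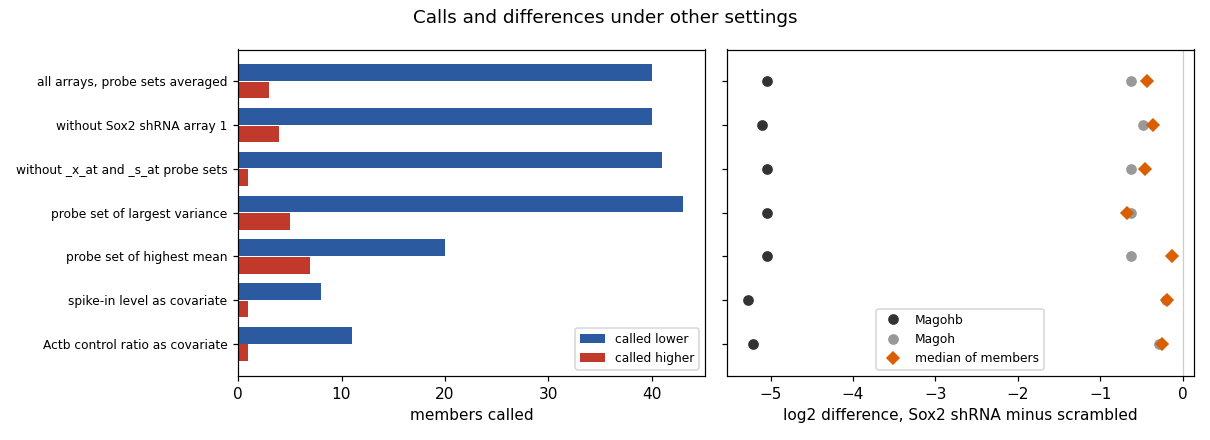
Left, members called lower (blue) and higher (red) out of 62 under 7 settings of the analysis; right, the log2 difference of Magohb and Magoh and the median of the members under the same settings. The count called lower is 40 with probe sets averaged, 20 with the probe set of highest mean and 8 with the spike-in covariate, while Magohb stays between -5.28 and -5.05.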

How the data were processed

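Values were read from the deposited normalized table of 6 arrays. The deposited log2 values were made by the authors with GCOS 1.4 and RMA, per the submitters' processing notes (RMA settings not given in the sources used here). The log base is not stated; log2 was assumed, as RMA output has that base. The value table of the series holds the same numbers, with 0 cells differing. The centring per probe set was seen in the values. Precision is limited by the number of arrays.

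Of 22690 probe sets, 64 array controls and those naming several genes (578) or none (543) were left out of the gene tests. Probe sets of 1 gene were averaged. Groups were compared with limma 3.58.1 (R 4.3.3, lmFit and eBayes, no covariate) on all 13213 genes, with Benjamini-Hochberg adjustment over all of them and a threshold of 0.05. The Magohb to Magoh contrast and the array controls were compared with two-sided exact permutation tests.

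Members, complexes and lists were chosen with earlier results of these data known. The genes to name were Magoh and Magohb, members with a log2 difference of at least 1, in each complex the 4 called higher and the 4 called lower with the smallest adjusted p and the uncalled member with the largest difference, members with probe sets called in opposite directions, and up to 4 of each list. Other members and list genes are given to account for them all and were chosen after their values were seen. The values of 1 member, which is included in the counts and medians, are not reported here.

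Alternatives were the replicate number as a block, array centring, other probe set rules, a filter on probe sets that vary least, another variance model, array weights, the spike-in mean as covariate, a threshold of 0.01, single probe sets and each array left out. The Actb covariate was added after seeing the data. On simulated data with 13213 genes, 50 genes were shifted at each of 4 log2 sizes. Limma called 32% at 0.5, 84% at 1, 98% at 2 and 100% at 3, and 2 of the 13013 unshifted genes. The simulated noise was normal and independent between genes, and far fewer genes were shifted than were called on the arrays. These rates therefore need not hold for the deposited values. Figures were drawn with matplotlib 3.10.9.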

Additional observations from a re-analysis of the deposited data

How the results depend on the processing

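The largest changes came with the array control measures and the choice of probe set; the covariates differ between the groups, and so share their information with the comparison. With the spike-in mean as covariate, 8 members were called lower and 1 higher, and the median was -0.19; with the Actb ratio these were 11, 1 and -0.25. The medians with the spike-in mean and with the Actb ratio were -0.35 and -0.41 for SR proteins, -0.33 and -0.34 for SR-related genes, -0.13 and -0.17 for hnRNPs, -0.082 and -0.15 for the Sm core, and -0.086 and -0.15 for Prpf genes. Magoh was at -0.21 and -0.28, not called, and Magohb minus Magoh at -5.07 and -4.93. With the spike-in mean 7 members changed sign, of which Hnrnpl (0.018) had been called lower, and Prmt5 of the lists turned to 0.033. With the Actb ratio 6 members changed sign, none of them called lower before.

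With the probe set of highest mean, 20 members were called lower and 7 higher, and the median was -0.12. The medians were then -0.38 for SR proteins, 0.12 for SR-related genes, -0.17 for hnRNPs, -0.20 for SF3a and SF3b, -0.12 for the Sm core, -0.0028 for U1 and U2 specific proteins and 0.12 for Prpf genes. Under it 18 members changed sign, 7 of them called lower before. Among members Hnrnpab turned to 0.73, Srsf1 to 0.038, Hnrnpu to 0.029, Prpf4b to 0.22, Prpf39 to 0.010, Scaf11 to 0.43, Snrpb2 to 0.49, Snrpd3 to 0.22 and Srsf3 to 0.082, and among list genes Rnps1 turned to 0.053, Rbm5 to 0.0047, Ptbp1 to 0.10, Rbm39 to 0.17 and Hnrnpdl to 0.18. By its construction on centred values this rule takes probe sets that read high on the Sox2 shRNA arrays. With the largest variance, 5 members were called higher, the median was -0.67, and the medians were -1.09 for SR proteins, -0.73 for hnRNPs, -0.57 for SF3a and SF3b and -0.40 for Prpf genes, with Scaf11 at 0.43 and Snrpb2 at 0.49.

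Without _x_at and _s_at probe sets 1 member was called higher, and the medians were -0.063 for SR-related genes, -0.54 for SF3a and SF3b and -0.096 for U1 and U2 specific proteins. Single probe sets gave 7 members called higher. Without the probe sets that vary least the medians were -0.32 for SR-related genes, -0.46 for the Sm core, -0.64 for U1 and U2 specific proteins and -0.32 for Prpf genes. The Prpf median was -0.29 with arrays centred and -0.26 with array weights. The cause of these moves was not tested beyond the constructions named.

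Leaving out each array in turn gave 27 to 40 members called lower, 2 to 4 higher, and medians of -0.48 to -0.35; the SR-related median ranged from -0.26 to -0.058, the Prpf median from -0.26 to -0.22, Magohb from -5.11 to -4.95 and Magoh from -0.70 to -0.49. Same-numbered arrays of the groups correlated at 0.116, -0.025 and 0.170, so the numbers were taken as names only. With the replicate number as a block 39 members were called lower and 2 higher, and Magohb stayed at -5.05 and Magoh at -0.62. The other deposited table was not run as an alternative because no cell differs. Signal over background is unknown, so a dim probe set cannot be told from a small difference.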
